A study of Mus musculus with 6 samples.

Results

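The genes described here were higher in corticothalamic projection neurons at P6 than at both earlier stages, with little difference between E18 and P3. They were chosen from the measured values. Each gene was represented by its brightest probe set among those with 1 gene symbol, with a mean of at least 6 log2 units over the 6 arrays. Its mean P3 level had to lie within 0.5 log2 units of its mean E18 level, and its lower P6 value had to exceed the highest of the 4 E18 and P3 values by at least 0.4. Of 13545 genes with a mean of at least 6, out of 18193 genes in all, 273 met this rule, so the limit of 300 genes was not reached. Because every array was used to choose these genes, their levels and stage differences are given as a description with no test.

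The neurons came from wild-type C57BL/6 mice. Fluorescent microspheres placed in the thalamus were taken up by axons and carried back to the cell bodies, and labelled neurons were sorted by fluorescence from dissociated cortex. The E18 group was injected at E17.5 and collected at E18.5, the P3 group was injected at P1, and the P6 group at P4, so labelling time was shorter at E18 and cannot be told apart from stage there. Each stage had 2 arrays. Whether these were separate cell sorts is not stated, and p-values therefore describe array spread that may be technical.

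Corticothalamic neurons lie mainly in layer 6 of the cortex and send excitatory axons to thalamic nuclei, which they modulate. During the days after birth their axons enter these nuclei, form branches and synapses, and the neurons acquire the channels, receptors and transmitter release machinery of mature cells. Glutamate release from cortical neurons comes to rely on the vesicular glutamate transporter encoded by Slc17a7 as the cortex matures.

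The arrays differed in quality. On P3 replicate 2 the level of 18S ribosomal RNA controls was 14.22 log2 units, on P6 replicate 1 it was 13.92, and the other 4 arrays lay between 11.32 and 11.83. Hybridization controls were at 9.59 and 9.25 at E18, then 11.72 and 11.59 at P3, then 13.01 and 9.85 at P6. Those levels thus differed between E18 and P3 and within the P6 pair. The E18 arrays correlated at 0.998, the P3 arrays at 0.961 and the P6 arrays at 0.976. The summed linear signal of 17 corticothalamic and layer 6 markers was 16033 and 16931 at E18, then 35085 and 22808 at P3, then 36120 and 33038 at P6, with every marker above the array's lower quartile on at least 1 array of each stage. Markers of radial glia and progenitors summed to 43699 and 43823 at E18, against 1735 to 2390 on the 4 later arrays. The E18 arrays thus held strong progenitor signal beside that of the labelled neurons. In RNA from a sorted pool, fewer cells of a type and less RNA per cell cannot be told apart.

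The 273 genes were higher at P6 than at P3 by a median of 1.04 log2 units, or 2.05-fold, with a range from 0.52 to 2.33. For 152 of them the difference was at least 2-fold. Over all 13545 genes the median difference was 0.17. Against E18 the members' median difference was 1.03 at P6, over a background median of 0.08. Their median level by array was 8.75 and 8.76 log2 units at E18, then 9.02 and 8.55 at P3, then 9.77 and 9.92 at P6. The P6 arrays therefore lay above all earlier arrays, while those of P3 lay on either side of E18. P3 means were above E18 for 132 members and below it for 141.

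**Figure D1:**
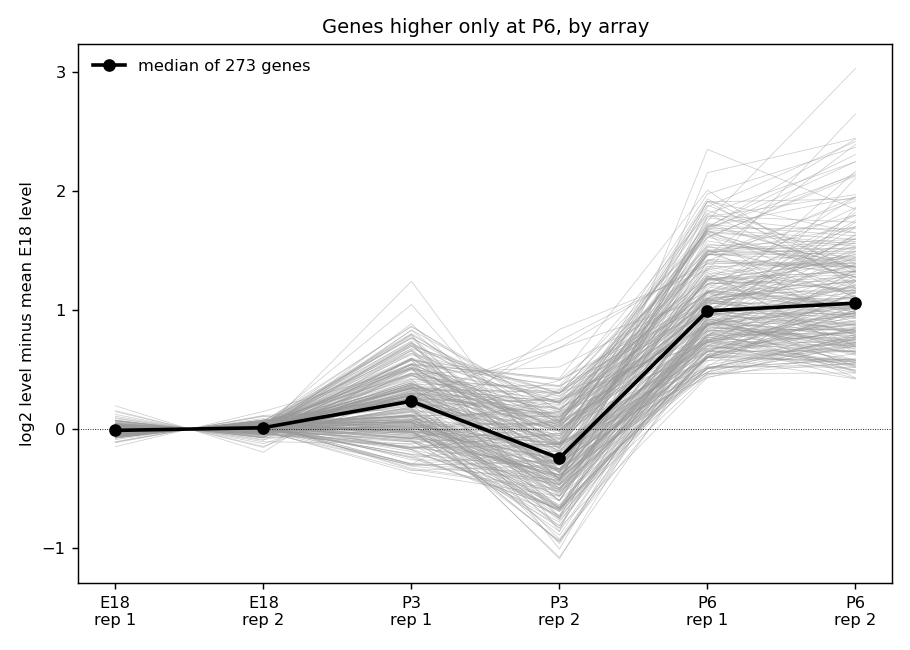
Log2 level of each of the 273 genes on each array, minus the gene's mean E18 level (grey lines), with the median (black). The median lies near 0 on both E18 arrays, above 0 on P3 replicate 1, below 0 on P3 replicate 2 and near 1 on both P6 arrays.

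The 2 P3 arrays differed for most of these genes. P3 replicate 1 was above P3 replicate 2 for 244 of 273 members (89.4%), against 68.3% of all genes tested. The median absolute difference between the arrays of a stage was 0.05 log2 units for the E18 pair, 0.44 at P3 and 0.21 at P6 over the members, and 0.07, 0.41 and 0.28 over all genes. The highest earlier value, which the P6 arrays had to exceed, came from P3 replicate 1 for 186 members, from an E18 array for 71 and from P3 replicate 2 for 16. Without P3 replicate 2, 290 genes met the rule, of which 214 were among the 273, and their median difference between P6 and P3 was 0.83. Without P3 replicate 1 the rule let in 669 genes, and 208 of the 273 still met it. With quantile normalization 199 genes met it, of which 130 were among the 273. P3 replicate 2 was also the lowest of the 6 arrays for 175 members. With quantile normalization the median difference between P6 and P3 was 0.96 for the genes chosen and 0.03 for all genes.

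Both P6 arrays lay above the other 4 for 2134 of 13545 genes (15.8%), and by at least 0.4 log2 units for 567 (4.19%). Of those 567 genes, 256 were higher at P3 than at E18 by 0.5 or more, 38 were lower by as much, and 273 were flat. The mirrored rule, with both P6 arrays at least 0.4 below the other 4, was met by 41 of the 5405 flat genes. That rule turns on the lowest earlier array. P3 replicate 2 had the lowest median over all genes, 7.92 log2 units, against 8.29 to 8.54 on the other arrays. The mirrored rule was thus harder to meet, and nothing is read from 41 beside 273.

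**Figure D2:**
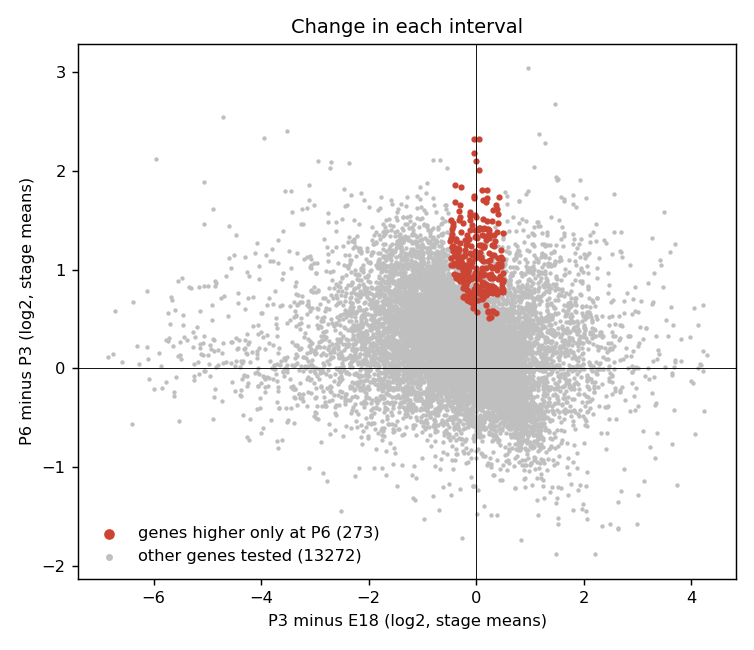
Difference between P6 and P3 (vertical axis, log2) against the difference between P3 and E18 (horizontal axis, log2) of stage means for all 13545 genes tested. The 273 members (red) lie within 0.5 of 0 on the horizontal axis, as the rule requires, and between 0.52 and 2.33 on the vertical axis, and the other genes are grey.

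A limma fit over all genes gave the background for these values. Between P6 and P3 it called 0 members and 0 of all genes (0.0%) at an adjusted p below 0.05, with 272 members and 2682 genes (19.8%) at an unadjusted p below 0.05. With array weights limma called 0 genes, and 1770 had such a p. Without P3 replicate 1, limma called 3896 genes, and 274 of the 300 members in that setting, in this comparison. Those 300 were the genes with the largest differences between P6 and P3 among the 669 that met the rule. Between P6 and E18, limma called 191 members higher, beside 2010 of all genes (14.8%). Without E18 replicate 1 or 2 the members called were 55 and 51 of those chosen in each setting, and with the E18 arrays averaged 58. Between P3 and E18 it called 0 members higher and 0 lower, with 3 at an unadjusted p below 0.05 (52.9% of all genes), beside 2100 higher (15.5%) and 3510 lower (25.9%) of all genes. With quantile normalization limma called 2870 genes higher and 2777 lower in this comparison. Averaging the E18 arrays gave 710 higher and 1737 lower, leaving out E18 replicate 1 gave 741 and 1702, and leaving out E18 replicate 2 gave 704 and 1568. The rule used all 3 comparisons, so nothing is read from these counts.

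Several genes have more than 1 probe set, and the other probe sets often had another time course. Of the 273 members, 152 had 1 probe set. Another 100 had at least 1 further probe set with a mean of at least 6. For 61 of these 100 all such probe sets were higher at P6 than at P3 by stage means, and for 16 a further probe set also met the flatness and gap limits. For 21 a further probe set differed between P3 and E18 by at least 1 log2 unit. The statement that a gene was flat until P3 thus holds for the brightest probe set, in RNA pools that differed in progenitor signal. The cause of the disagreement was not tested.

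Bcl11b, which encodes a zinc-finger transcription factor of deep-layer neurons, shows the disagreement most plainly among the named genes. Its brightest probe set had 10.70 and 10.75 log2 units at E18, then 11.47 and 10.17 at P3, then 12.01 and 11.89 at P6. The P6 arrays were highest, and the P3 arrays lay 1.30 apart on either side of E18. A second probe set had 10.04 and 10.12 at E18, then 11.86 and 11.89 at P3, then 11.31 and 11.23 at P6. That probe set was higher at P3 than at E18 by 1.80, and 2 further ones by 1.36 and 2.22, and all 3 were lower at P6 than at P3. Vamp2, the synaptic vesicle SNARE gene, had 9.66 on both E18 arrays, then 10.12 and 9.43 at P3, then 11.16 and 11.09 at P6. Its dimmer probe set had 7.26 and 7.27 at E18, then 7.51 and 8.86 at P3, then 9.23 and 8.03 at P6, so that one P3 array exceeded one P6 array. For Nrp1, which encodes a semaphorin and VEGF co-receptor, the 3 further probe sets were higher at P3 than at E18 by 0.74 to 0.81, against 0.19 for the brightest. Gabrb1, a GABA-A receptor subunit gene, had a further probe set that met the same limits, at 8.18 and 8.27 at E18, then 8.51 and 7.87 at P3, then 8.96 and 9.45 at P6.

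**Figure D3:**
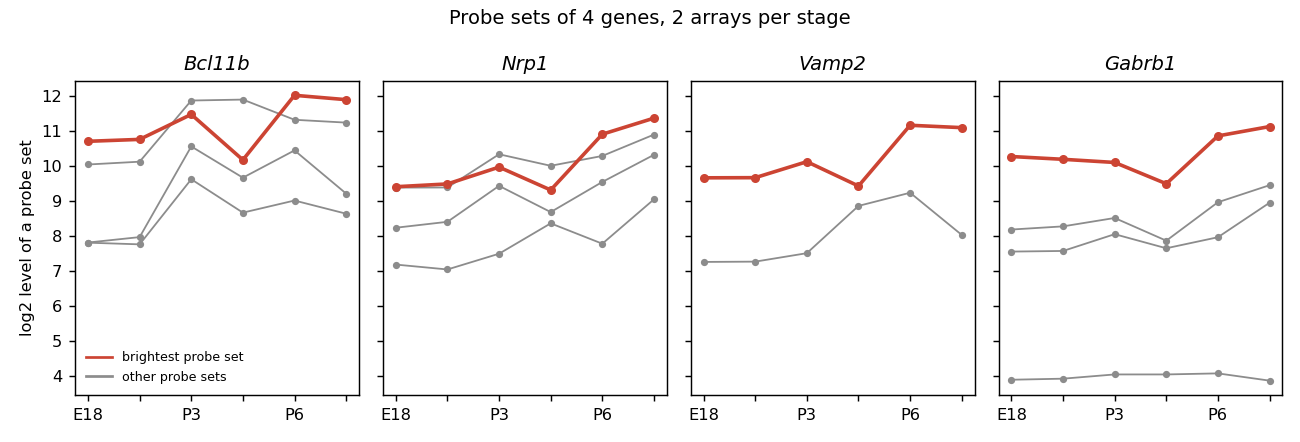
Log2 level of each probe set of Bcl11b, Nrp1, Vamp2 and Gabrb1 on the 6 arrays, in the order E18, P3 and P6 with 2 arrays each. The brightest probe set (red) carried the pattern of the rule, and 3 grey probe sets of Bcl11b were already higher at P3, while 1 bright grey probe set of Gabrb1 followed the red one.

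The largest difference between P6 and P3 was that of Lrrn2, which encodes a leucine-rich repeat membrane protein of neurons. It had 8.30 and 8.36 log2 units at E18, then 9.12 and 7.47 at P3, then 10.48 and 10.77 at P6. Both P6 arrays were the highest and P3 replicate 2 was the lowest, and the mean was 5.02-fold higher at P6 than at P3. Ankrd63, an ankyrin repeat gene, had 6.10 and 6.25 at E18, then 6.45 and 6.02 at P3, then 7.92 and 9.20 at P6. Its 4 earlier arrays lay close together near the dim end, and its P6 arrays differed by more than 1 unit. Reep2, whose product shapes the endoplasmic reticulum, was 4.55-fold higher, with 7.40 and 7.45 at E18, then 8.09 and 6.67 at P3, then 9.29 and 9.84 at P6. Micall2, which encodes an actin-associated regulator of membrane traffic, was 4.29-fold higher, and Fibcd1, a gene for a chitin-binding membrane protein, was 4.04-fold higher. Both were dim before P6, with E18 and P3 values between 5.12 and 6.59.

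Slc4a3 had the widest gap between P6 and all earlier arrays. It encodes an anion exchanger that moves chloride and bicarbonate across the membrane. Its levels were 8.92 and 8.88 at E18, then 9.13 and 8.89 at P3, then 10.80 and 10.83 at P6, so its lower P6 value lay 1.67 above the highest earlier one. The arrays of each stage agreed within 0.24 log2 units, and P3 replicate 2 did not stand apart. Pld3, a lysosomal exonuclease gene of the phospholipase D family, had 10.36 and 10.40 at E18, then 10.19 and 9.78 at P3, then 11.60 and 12.08 at P6. Brinp2, a gene expressed in the nervous system, also had a gap above 1 log2 unit, with 6.15 and 6.01 at E18, then 6.50 and 6.42 at P3, then 7.89 and 8.33 at P6. Of the other leading genes, Ttc9b, Rhbdl1 (a rhomboid-like protease), Plpp7, Ptp4a3 (a tyrosine phosphatase) and Usp2 (a deubiquitinase) were between 3.21-fold and 3.58-fold higher at P6 than at P3. Ikzf2 (a zinc-finger transcription factor), Ephb6 (an Eph receptor without kinase activity) and Slc7a4 lay in the same range. Dimmer probe sets with a mean of at least 6 differed between P6 and P3 by 0.42 for Ptp4a3 and 0.34 for Usp2. Those of Slc7a4 differed by 1.34 and -0.48, and were higher at P3 than at E18 by 0.82 and 1.14.

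**Figure D4:**
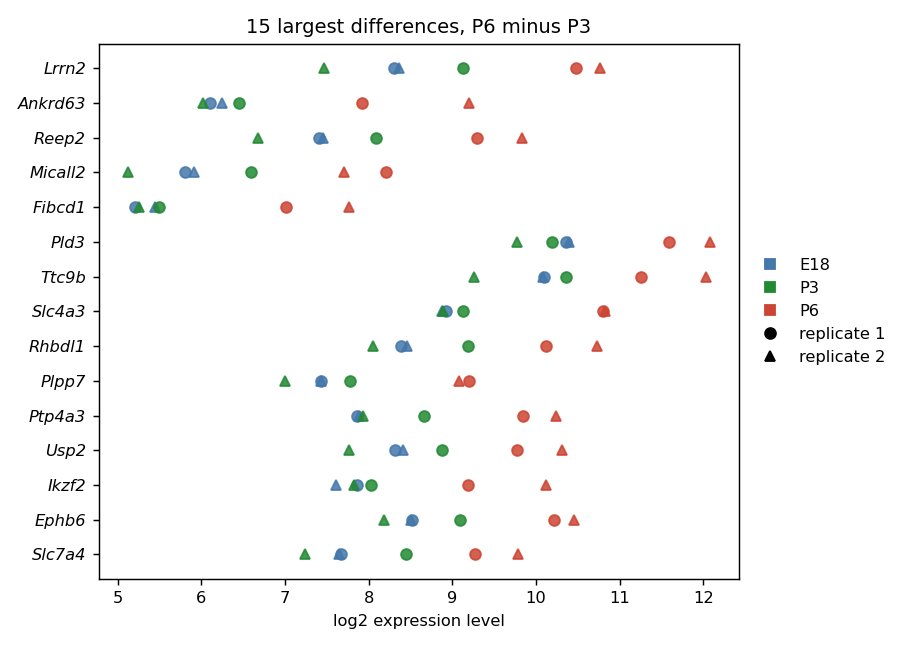
Log2 level of the 15 members with the largest difference between P6 and P3 on each of the 6 arrays, coloured by stage, with replicate 1 as circles and replicate 2 as triangles. In every gene the P6 points (red) lie to the right of the E18 points (blue) and P3 points (green), and P3 replicate 2 lies left of P3 replicate 1 in all 15.

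The windows around RefSeq start sites of 4 of these genes show the range of sequence found at the members' starts. Lrrn2 and Ankrd63 had the largest differences, and Slc17a7 and Bcl11b are the members closest to glutamate transmission and deep-layer identity. Each window runs 5′ to 3′ on the gene's strand, with capitals for GC boxes (GGGCGG) and TATA boxes (TATAAA) on either strand, in build GRCm38.p6. The windows are at chr1:132880105-132880404 (+) for Lrrn2, chr2:118703914-118704213 (-) for Ankrd63, chr7:45163671-45163970 (+) for Slc17a7 and chr12:108003365-108003664 (-) for Bcl11b. The first 3 span the annotated start of the gene, while the Bcl11b window lies inside the annotated gene, whose outer end is at 108004145.
Lrrn2: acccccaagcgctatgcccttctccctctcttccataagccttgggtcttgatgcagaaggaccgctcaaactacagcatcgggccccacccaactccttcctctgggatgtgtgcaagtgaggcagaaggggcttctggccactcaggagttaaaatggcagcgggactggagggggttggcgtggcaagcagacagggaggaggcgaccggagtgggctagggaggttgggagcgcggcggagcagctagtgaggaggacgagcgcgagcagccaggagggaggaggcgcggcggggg
Ankrd63: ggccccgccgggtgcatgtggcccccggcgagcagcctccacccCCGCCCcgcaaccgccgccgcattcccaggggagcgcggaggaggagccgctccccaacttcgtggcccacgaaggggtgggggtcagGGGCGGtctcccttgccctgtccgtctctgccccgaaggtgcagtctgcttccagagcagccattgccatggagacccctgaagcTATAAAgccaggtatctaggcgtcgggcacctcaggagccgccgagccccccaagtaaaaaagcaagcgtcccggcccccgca
Slc17a7: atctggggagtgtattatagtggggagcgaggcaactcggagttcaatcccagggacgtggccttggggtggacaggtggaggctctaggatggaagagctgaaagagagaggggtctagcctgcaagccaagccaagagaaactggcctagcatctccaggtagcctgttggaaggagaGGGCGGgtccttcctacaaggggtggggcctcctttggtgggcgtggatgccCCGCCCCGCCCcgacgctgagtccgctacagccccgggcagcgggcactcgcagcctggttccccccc
Bcl11b: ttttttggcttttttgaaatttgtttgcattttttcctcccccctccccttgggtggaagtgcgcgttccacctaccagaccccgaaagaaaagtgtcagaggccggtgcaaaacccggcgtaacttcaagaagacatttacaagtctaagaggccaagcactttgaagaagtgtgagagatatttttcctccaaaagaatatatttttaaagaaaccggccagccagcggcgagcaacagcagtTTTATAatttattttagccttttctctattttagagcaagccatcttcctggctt
Slc17a7 held 3 GC boxes, 2 of them overlapping by 1 base, and Ankrd63 held 2 and a TATA box. Lrrn2 held neither motif, although G and C made up 64.0% of its bases, and Bcl11b, with 43.0%, held a TATA box alone, on the other strand.

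Windows of 300 bases were found for 223 of the 273 members and for 10855 of all genes tested. The median GC content was 62.7% in the members, 59.7% in the other 4077 flat genes and 60.7% in all genes tested. The GC box was present, on either strand, in 158 members (70.9%), against 57.7% of the other flat genes and 61.8% of all genes tested. TATAAA was found in 9 members (4.04%), against 8.71% and 7.73% in those sets. The nuclear receptor half-site AGGTCA was found in 18 members (8.07%), against 13.3% and 12.3%. For CCAAT the shares were 32.7%, 37.8% and 38.6%, for the E-box CACGTG 10.3%, 9.96% and 9.87%, for TGACGTCA 1.79%, 3.26% and 3.11%, and for the Egr site GCGNGGGCG 11.7%, 9.71% and 10.5%. These shares describe letters in a fixed window and were not tested. The letters of a GC box can overlap those of an Egr site.

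Genes with the least GC at their starts were seldom members. When the genes were cut into 4 bands by GC content, 23 of 2757 were members in the lowest band, of at most 54.0% (0.834%), against 2.45%, 2.31% and 2.64% in the bands above it. Among flat genes alone the shares were 1.91% in that band and 6.02%, 6.24% and 7.18% in the others. The median difference between P6 and P3 of all genes was also smallest in the lowest band, at 0.08 there and 0.20, 0.23 and 0.21 in the others. Between P3 and E18 the median of all genes was 0.10 in the lowest band, against -0.25, -0.35 and -0.24 in the others. The lowest band thus stood apart in both intervals, while the others lay close together. Both intervals use the P3 mean, with opposite signs, so a shift of the P3 arrays alone moves them in opposite directions. Without P3 replicate 2 the median of all genes was 0.05 between P6 and P3 and 0.004 between P3 and E18. The bands were not recomputed in that setting, so these 2 values do not bear on the difference between bands. The part of GC content in the choice of members was not tested.

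Glutamate release and reception contributed a small number of members. Slc17a7 had 5.99 and 6.02 log2 units at E18, then 5.92 and 6.84 at P3, then 7.34 and 8.65 at P6. Its probe set was dim on all arrays before P6, and one P3 array lay above the other 3 earlier ones. Cnih2, an auxiliary subunit gene of AMPA receptors, had 9.91 and 9.90 at E18, then 10.07 and 9.25 at P3, then 10.97 and 11.29 at P6, and was 2.77-fold higher at P6 than at P3. The endocytic gene Bin1 was 2.56-fold higher, Camk2g, a subunit of calcium/calmodulin-dependent kinase II, 1.91-fold, and the postsynaptic scaffold gene Dlgap3 1.77-fold. Clstn3, which encodes a synaptic adhesion protein, was 2.03-fold higher. A dimmer probe set of Bin1 was level between P3 and P6, with a difference of -0.03. That of Camk2g differed by 0.28 between P6 and P3 and by 0.51 between P3 and E18.

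Members also included genes of calcium signalling and ion channels. Camk1, a calcium/calmodulin-dependent kinase gene, had 9.06 on both E18 arrays, then 9.20 and 7.97 at P3, then 10.02 and 10.16 at P6. Itpka, whose product phosphorylates inositol trisphosphate in dendritic spines, had 5.95 and 5.99 at E18, then 6.02 and 6.20 at P3, then 7.27 and 7.43 at P6. The P6 arrays of Itpka lay at least 1.07 above every earlier array, although its level was low. Cacna1h, the gene of a T-type calcium channel, was 2.22-fold higher at P6 than at P3, the potassium channel beta subunit gene Kcnab2 2.21-fold, and the calcium channel beta subunit gene Cacnb2 1.68-fold. Gabrb1 was 2.29-fold higher, and its P3 mean lay 0.43 below E18. Dimmer probe sets of Kcnab2 and Camk1 differed between P6 and P3 by -0.45 and 1.55. Between P3 and E18 they differed by 0.91 and -0.86, so neither was flat until P3.

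Axon guidance genes included both receptors and ligands. Nrp1 had 9.40 and 9.48 at E18, then 9.96 and 9.31 at P3, then 10.90 and 11.36 at P6. Plxna1, a semaphorin receptor gene that acts with neuropilins, had 8.81 and 8.90 at E18, then 8.82 and 8.74 at P3, then 9.33 and 10.09 at P6. Its P3 arrays did not stand apart, and its P6 arrays differed by 0.76. The ephrin ligand gene Efnb3 was 2.24-fold higher at P6 than at P3. The semaphorin genes Sema4g and Sema6b, named after their values were seen, were 2.27-fold and 1.77-fold higher.

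A few genes of acid compartments, lipids and metabolism were members. Of the ion and proton pump list 2 of 22 genes tested were members, and of the cholesterol and lipid list 2 of 27. For the lysosome, amino acid and nucleotide, and extracellular matrix lists the counts were 1 of 32, 2 of 29 and 1 of 23. Beside 2.02% of all genes tested, nothing is read from these counts. Atp6v0a1, a membrane subunit gene of the vacuolar proton pump that fills synaptic vesicles and acidifies lysosomes, had 9.90 and 9.97 at E18, then 10.48 and 9.77 at P3, then 11.43 on both P6 arrays. Its 3 further probe sets differed between P6 and P3 by -0.06 to 0.36. Another pump subunit gene, Atp6v0e2, was 1.99-fold higher, and Gaa, the lysosomal alpha-glucosidase gene, 1.81-fold. The cholesterol synthesis genes Dhcr7 and Mvd were 2.05-fold and 2.03-fold higher. Slc25a22, a mitochondrial glutamate carrier gene, had 9.58 and 9.71 at E18, then 10.41 and 9.81 at P3, then 11.36 and 11.27 at P6, while Got1, which encodes cytosolic aspartate aminotransferase, was 1.88-fold higher. Col4a2, a basement membrane collagen gene, was 2.37-fold higher.

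Among transcription factors, Egr4, an early growth response gene, had 7.39 and 7.50 at E18, then 7.91 and 7.97 at P3, then 8.60 and 9.05 at P6. It lay close to the flatness limit, with a P3 mean 0.49 above E18. Nr1d1, a repressor of the circadian clock, was 1.93-fold higher at P6 than at P3, with 6.49 and 6.60 at E18, then 7.02 and 6.61 at P3, then 8.05 and 7.47 at P6. Cry2, another clock repressor gene that was picked after its values were seen, was 1.74-fold higher. Camta2, a calmodulin-binding transcription activator gene, was 1.71-fold higher. Actl6b, a subunit gene of the neuronal BAF chromatin remodeller also picked afterwards, had 9.13 on both E18 arrays, then 9.41 and 8.61 at P3, then 10.16 and 10.88 at P6.

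The 5 members brightest at P6 included genes of transport and signalling. Dctn1, the dynactin subunit gene used in retrograde axonal transport, had 12.06 and 12.03 at E18, then 12.07 and 11.91 at P3, then 12.47 and 12.81 at P6. It was 1.57-fold higher at P6 than at P3 and lay just inside the gap limit. Podxl2, which encodes a sialomucin, had 10.75 and 10.80 at E18, then 11.00 and 10.52 at P3, then 12.28 and 12.35 at P6, a 2.95-fold difference between P6 and P3. Ube2ql1, a ubiquitin-conjugating enzyme gene, and Dgkz, a diacylglycerol kinase gene, were 2.18-fold and 1.97-fold higher. Dimmer probe sets of Ube2ql1, Dgkz and Dctn1 differed between P6 and P3 by -0.23, 1.83 and 1.65. Between P3 and E18 those of Ube2ql1 and Dgkz differed by 0.68 and -0.77, beyond the flatness limit, and that of Dctn1 by -0.45. Ctxn1, a neuronal membrane protein gene, had 11.29 and 11.33 at E18, then 11.32 and 11.01 at P3, then 12.05 and 12.28 at P6. P6 levels over all members ran from 6.85 to 12.64 log2 units with a median of 9.85, and 23 members were below 8.

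When 144 of the members were sorted into 9 groups by known function after their values were seen, the groups' median differences between P6 and P3 lay close together. All had passed the same limits of the rule, so nothing is read from this closeness. The lowest was 0.86 for 16 genes of the cytoskeleton and axonal transport, and the highest was 1.25 for 15 genes of axon guidance, growth and adhesion. The 23 genes of lysosomes, autophagy and endosomal sorting had a median of 0.99, the 22 transporter and channel genes 1.14, the 19 genes of synapses and vesicle fusion 1.21 and the 15 genes of ubiquitin ligases and proteases 1.12. For 8 glycan synthesis genes it was 1.12, for 13 genes of lipid metabolism and phosphoinositides 0.99, and for 15 genes of transcription and chromatin 0.95. Atp13a2 and Slc29a3 were counted in 2 groups, transporters and lysosomes, and the other 129 members in none.

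Of 715 genes tested in 24 function lists, 29 were members (4.06%), against 2.02% of all genes tested, a difference that was not tested. Between P3 and E18 limma called 244 of the 715 higher and 133 lower. The counts by list stand beside 15.5% of all genes called higher and 25.9% called lower in that comparison. Those all-gene counts were lower with the E18 arrays averaged or 1 left out, as given above, and the list counts were not recomputed there. The E18 arrays held strong progenitor signal. In comparisons with E18, changes in the neurons and in the make-up of the pool therefore cannot be told apart. In the list of synaptic vesicles and release, 29 of 42 genes were called higher at P3 than at E18 and 3 lower, and 3 of the 42 were members. Of 47 voltage-gated ion channel genes, 32 were called higher and 1 lower, with 3 members. Of the calcium and cyclic nucleotide signalling genes, 22 of 33 were called higher and 2 lower, with 2 members. The postsynaptic list had 17 called higher and 2 lower among 35 genes, with 3 members. The axon guidance list had 14 called higher and 7 lower among 40 genes, with 3 members. By P6 against E18, limma called 34 of the 42 vesicle genes higher and 2 lower, and 38 of the 47 channel genes higher and 0 lower, beside 14.8% and 17.0% of all genes. Between P6 and P3 limma called 0 genes of these lists, as for all genes. The medians of the vesicle, channel and postsynaptic lists in that interval were 0.39, 0.31 and 0.26, and with quantile normalization 0.16, 0.09 and -0.03, so the postsynaptic direction turned.

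The lysosome and glycolysis lists had medians below 0 in the earlier interval. Median differences between P3 and E18 were -0.88 for 32 lysosome and autophagy genes, with 0 called higher and 15 lower, and -0.55 for 18 glycolysis genes, with 3 higher and 8 lower, beside the same 15.5% and 25.9% of all genes. Between P6 and P3 their medians were 0.65 and 0.71, over a median of 0.17 for all genes, with 0 called, as among all genes. With quantile normalization they were 0.36 and 0.50 over 0.03 for all genes, and -0.54 and -0.21 between P3 and E18. The P3 mean enters both intervals with opposite signs, so a low P3 array alone moves the medians in these directions. List medians were not computed without P3 replicate 2, so the part of that array in them was not tested. The lysosome list had 1 member and the glycolysis list had 0. The respiratory chain, tricarboxylic acid cycle, ribosomal and redox lists held 0 members among 43, 21, 27 and 25 genes tested. The same was true of 37 G protein signalling and 23 secretory granule genes. With 2.02% of all genes tested being members, the background share of lists of this size is under 1 gene, and nothing is read from these zeros.

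**Figure D5:**
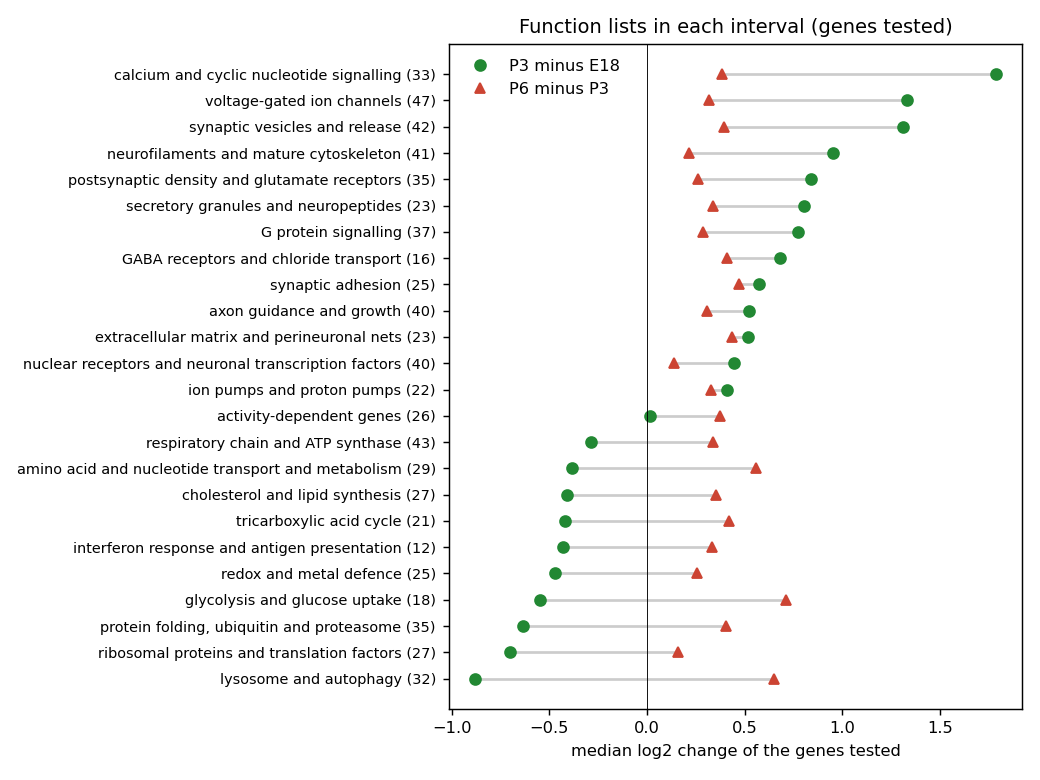
Median log2 change of each function list, with the number of genes tested in brackets, for P3 minus E18 (green circles) and P6 minus P3 (red triangles). Both use the P3 mean, with opposite signs. The vesicle and channel lists lie at 1.31 and 1.33 for P3 minus E18 and at 0.39 and 0.31 for P6 minus P3, while the lysosome and glycolysis lists lie below 0 in the earlier interval and at 0.65 and 0.71 in the later one.

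Between P6 and P3 limma called 0 of all 13545 genes (0.0%), so its 0 calls among markers of other cell types carry no information. Of the 10 marker lists, only that of corticothalamic and layer 6 neurons held a member, Bcl11b. All 13 microglia and macrophage markers tested had a higher mean at P6 than at P3, with a median difference of 0.996, and the same held under quantile normalization, at 0.88. Their summed linear signal over 17 markers was 9695 and 9649 at E18, then 1745 and 3166 at P3, then 2762 and 7766 at P6. Of 17 astrocyte markers tested, 12 were higher at P6 than at P3 with a median of 0.45, and 18 markers summed to 31775 and 32484 at E18, then 9026 and 7774 at P3, then 11583 and 18234 at P6. In these lists 1 of 17 and 1 of 18 markers lay below the lower quartile on both P6 arrays. Both sums were higher on P6 replicate 2 than on P6 replicate 1. Of the members, 150 were higher on P6 replicate 2 and 122 on P6 replicate 1, a split not compared with all genes. The median level of all genes was also higher on P6 replicate 2, at 8.43 against 8.30, so nothing is read from that split. Both sums were highest at E18, where progenitor signal was strong too. The part of microglia and astrocytes in the members' levels was not tested.

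Blood vessel markers had a median difference of -0.05 between P6 and P3 over 14 genes, and 19 markers summed to 6450 and 6697 at E18, then 2668 and 2633 at P3, then 2777 and 3297 at P6. The genes Gja4 and Egfl7, known from blood vessels and seen among the members afterwards, were 2.15-fold and 1.87-fold higher at P6 than at P3. Dimmer Egfl7 probe sets with a mean of at least 6 differed between P6 and P3 by -0.02 and 0.99, and the gap of the latter was 0.05. Oligodendrocyte, interneuron and red blood cell markers had medians of -0.06, -0.03 and -0.22, the interneuron median being 0.01 with arrays centred on their medians. For Actb the 3′ probe set exceeded the 5′ one by 0.56 and 0.58 at E18, then 1.19 and 1.76 at P3, then 1.06 and 0.82 at P6. For Gapdh the excess was 1.48 and 1.44 at E18, then 2.55 and 1.68 at P3, then 2.08 and 1.79 at P6. P3 replicate 2, the lowest array for 175 members, had the largest excess for Actb, while P3 replicate 1 had it for Gapdh. The part of vessel cells and of 3′ bias in the members' levels was not tested.

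The members were spread over the genome, on all autosomes and the X chromosome. Chromosome 2 carried 33, chromosome 7 carried 29, chromosome 11 carried 28 and chromosome 8 carried 26. The share of genes tested that were members was 3.71% on chromosome 8, 3.05% on chromosome 2, 0.789% on chromosome 3 and 0.691% on the X chromosome.

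The limits of the rule cut through a continuous range. Just inside the gap limit lay Evl at 0.401, Aars at 0.401, Dctn1 at 0.405 and Zbtb8b at 0.406. Just outside it lay Srrd, Copg1 at 0.397, Cntnap4 at 0.397 and Dusp8 at 0.395. Near the flatness limit, Lingo3 and Plpp6 were inside with P3 means 0.499 and 0.498 above E18. Nab2 and Ggt7 were outside, with differences of -0.501 and 0.501.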

How the data were processed

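RNA of sorted mouse corticothalamic neurons was amplified, biotin-labelled and hybridized to Affymetrix arrays, per the labels. The authors deposited log2 values, obtained through RMA according to the submitters' processing notes. Whether 1 RMA run covered all 6 arrays is not stated. The number of arrays limits the precision.

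Gene names came from the platform annotation. Among 45101 probe sets, 34945 carried 1 symbol, and those with several (932), none (9160) or a control role (64) were left out. All 273 members matched RefSeq (GRCm38.p6) by Entrez ID. Windows reach from 250 bases before to 50 after a gene's most upstream start in RefSeq's window table.

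The 13545 genes with a mean of at least 6 were fitted by limma 3.58.1 (R 4.3.3) over the 6 arrays, with an intensity trend and 3 residual degrees of freedom. Tests were 2-sided, adjusted by Benjamini-Hochberg within each of 3 comparisons, with calls made below an adjusted p of 0.05. The fit was run on simulated data with independent noise and changes larger than the members' median. That run had no shifts of whole arrays, so it does not show how the fit performs on these arrays. The members and lists were chosen with earlier results of these data known, and the 9 groups, 7 motifs, 4 windows and the check of list medians under other scalings were chosen after the members were seen. Named genes are the 15 members with the largest difference between P6 and P3, the 5 with the widest gap, the 5 brightest at P6, up to 4 per list and those next to the limits. Other names are marked as chosen afterwards. Alternatives changed the probe set choice, filter, normalization, limits of the rule, spread model, covariates, pairing and arrays.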

Additional observations from a re-analysis of the deposited data

How the results depend on the processing

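The rule was met by 588, 144 and 75 genes with gaps of 0.2, 0.6 and 0.8, and by 288 to 669 with 1 array left out, the counts being 669 without P3 replicate 1, 654 without P6 replicate 1 and 613 without P6 replicate 2. With gaps of 0.6 and 0.8 the members' median difference was 1.24 and 1.41 between P6 and P3, and 1.29 and 1.46 between P6 and E18, where a flatness limit of 1 gave 1.30. With 1 array left out these medians ran from 0.83 to 1.34 and from 0.86 to 1.34. Where more than 300 genes met the rule, medians and members called are those of the 300 with the largest difference between P6 and P3, which by construction raises the median between P6 and P3. Between P6 and E18 limma called 2363 genes and 58 members with the E18 arrays averaged, 2476 and 66 with a covariate for hybridization controls, and 2222 to 6151 genes and 51 to 293 members with 1 array left out. Between P3 and E18 it called 2447 genes with the E18 arrays averaged, 2258 with the hybridization covariate and 2272 to 7833 with 1 array left out. Members called there were 4 with the 18S level as a covariate, 3 without the filter, 2 with quantile normalization and 0 to 8 with 1 array left out. Between P6 and P3, leaving out 1 array gave 0 to 3896 genes and 0 to 274 members, all above 0 coming without P3 replicate 1, and each of the other settings gave 0 genes. The cause of these shifts was not tested. The median of all genes between P3 and E18 was -0.13, and 0.09 with quantile normalization. Differences between the replicates of a stage correlated at -0.17, 0.06 and -0.24 between stages. Because array quality also differed between replicates, these values cannot show whether replicate numbers pair the arrays. With the replicate block limma called 4043 genes and 167 members between P6 and E18, 5188 and 0 between P3 and E18, and 0 and 0 between P6 and P3, with 2453 genes at an unadjusted p below 0.05. Settings that leave out an array leave its stage with 1 array, assumed to vary like the others.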
